A study of Mus musculus with 4 samples.

Results

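The genes described here encode the T cell receptor complex and the proteins that start its signal, together with a transcription factor gene that shares exonic sequence with 1 of them. The set was fixed by name as Cd3e, Cd3d, Cd3g, Cd247, Trac, Trbc1, Trbc2, Cd4, Lck and Pou2f1, and all 10 were found by symbol among the 50600 genes of the files. They were compared by counts per kilobase (kb) of exon and by whether their exons overlap exons of a gene on the other strand. RNA was sequenced from primary T-helper 2 (Th2) cells of the mouse strain C57BL/6NJ in 4 libraries, numbered as biological replicates 1 to 4 of a single group, with no other condition. The labels give each library its own biosample but a single donor, so p-values may measure only technical spread between these samples. They name the assay as total RNA sequencing yet point to a poly(A) library protocol and to a protocol for differentiating CD4 T cells, with age unknown and sex not recorded, and each file's header names 72 h without saying from when.

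The alpha and beta chains of the receptor bind peptide on an MHC molecule and have almost no cytoplasmic part of their own. The signal leaves through the CD3 gamma, delta and epsilon chains and the zeta chain, whose cytoplasmic tails hold tyrosine motifs. The kinase Lck, carried to the receptor by the co-receptor CD4 in helper T cells, phosphorylates these motifs, and the kinase Zap70 then binds them and passes the signal to adaptors.

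Replicates 1, 3 and 4 held 1713199 to 2388255 gene counts, whereas replicate 2 held 5016, so that 3 counts, taken here as the detection floor, were worth 598.09 CPM (counts scaled to a common library total) there and 1.26 to 1.75 CPM in the others. The values of replicate 2 are therefore given as counts and left out of the means. A gene's value is its count on its annotated strand, since the counter was set to assign read 1 to the gene's own strand (setting 1), per the file headers. A fragment from the other strand entered the tables only if it lay on a second annotated gene, and the sources used here do not give the direction in which the libraries mark strand. The values below are therefore levels on the annotated strand and need not be levels of the gene's own RNA, and which strand the RNA came from was not tested. Genes with at least 1 exonic base opposite an exon of another gene made up 16.2% of all genes and held 90.7%, 84.8%, 94.2% and 91.3% of the counts in replicates 1 to 4. Of the 10 genes of the receptor set, 3 belonged to that class, namely Cd3e, Cd247 and Pou2f1.

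Cd3e encodes the epsilon chain, which pairs with both the gamma and the delta chain. It lies on the minus strand of chromosome 9 at 44998740 to 45009627 (mm10) with 4080 exonic bases. Gm48719, an antisense gene of 361 exonic bases, lies inside its span on the plus strand at 44999429 to 45002985. The first exon of Gm48719, 135 bases long, lies wholly within the last exon of Cd3e, and its second exon, 226 bases long, lies in an intron of Cd3e. Of the 135 shared bases, 102 are 3′ untranslated sequence of Cd3e, which were left unprinted, 3 are its stop codon and 30 are the last 10 codons before it. These 30 bases, at chr9:44999534-44999563 (GRCm38), are printed because they are the coding sequence that both genes hold. Each is read 5′ to 3′ on its gene's own strand from the GENCODE vM21 transcripts, and the lines are reverse complements of each other.
Gm48719: gactgctctctgattcaggccagaatacag
Cd3e: ctgtattctggcctgaatcagagagcagtc

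**Figure D1:**
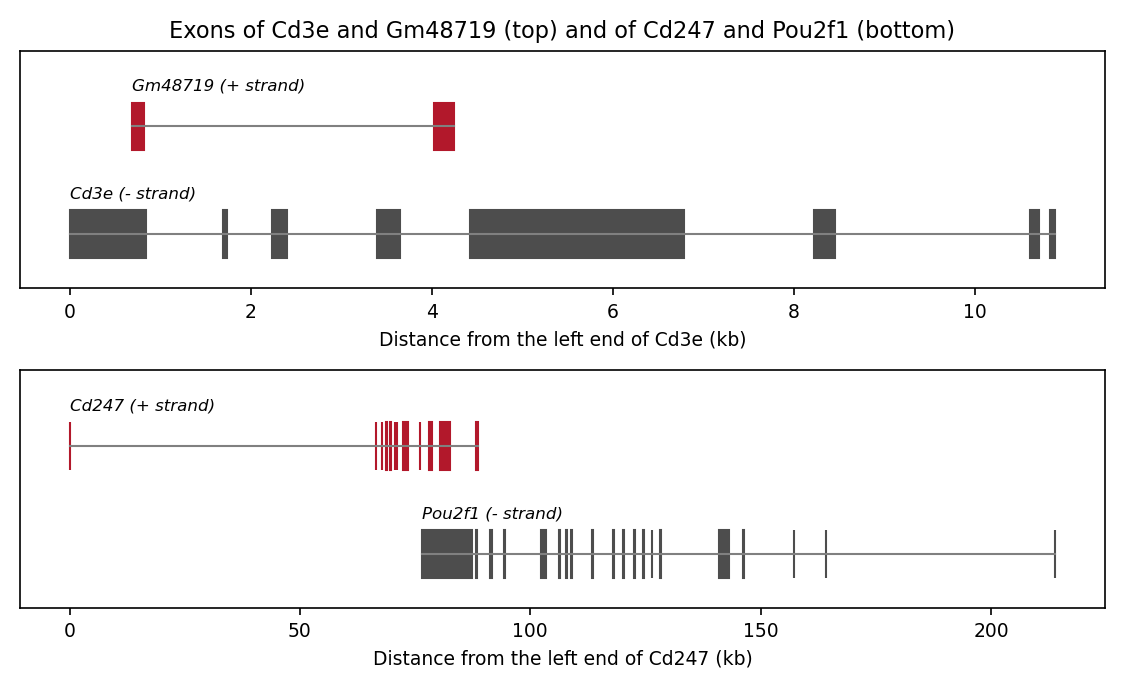
Exons (boxes) and spans (lines) of Cd3e and Gm48719 in the upper panel, and of Cd247 and Pou2f1 in the lower panel, drawn to scale as the distance in kb from the left end of Cd3e or Cd247. The first exon of Gm48719 (135 bases) lies over the last exon of Cd3e, while Cd247 and Pou2f1 overlap at their 3′ ends.

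The counts lay on the side of Gm48719 in every library. Gm48719 had 2547, 9, 2172 and 1868 counts in replicates 1 to 4, and Cd3e had 28, 0, 9 and 26. Per kb of exon, Gm48719 stood at 7055, 6017 and 5175 counts in replicates 1, 3 and 4, and Cd3e at 6.86, 2.21 and 6.37. The pooled density of Cd3e was 0.0846% of that of Gm48719 (95% exact interval 0.0650 to 0.108, counting error only), or 1182-fold lower (922 to 1540). Gm48719 was denser in 3 of 3 libraries, and the exact two-sided sign-flip permutation p of 0.25 is the smallest that 3 libraries allow (adjusted 0.393 over the 11 gene pairs compared here). On the TPM scale, which corrects counts for exonic length and library total, Gm48719 stood at 4327 ± 90.0 (SD, n = 3) and ranked 31 of 50600 genes. Intervals here treat fragments as independent, and copies made by PCR were not removed by a molecular identifier.

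The same comparison was made for every protein-coding gene with exons opposite those of a gene that lies inside its span, where the pair had 300 or more counts over replicates 1, 3 and 4. Of 540 such pairs, 465 had the lower density in the outer gene. The outer gene's density was 0.621% of the inner gene's at the median (interquartile range 0.207 to 4.28), and 53 pairs had a lower value than Cd3e and Gm48719.

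Cd247 encodes the zeta chain, and Pou2f1 encodes Oct-1, a broadly expressed factor that binds the octamer motif. Cd247 lies on the plus strand of chromosome 1 at 165788681 to 165877277 with 5329 exonic bases, and Pou2f1 on the minus strand at 165865154 to 166002678 with 16597. The genes run towards each other and share 3007 exonic bases at their 3′ ends, which is 56.4% of the exonic length of Cd247 and 18.1% of that of Pou2f1. Cd247 had 943, 1, 645 and 618 counts in replicates 1 to 4. Pou2f1 had 652, 1, 723 and 549, so the lead of Cd247 in counts did not hold in replicate 3, where Pou2f1 was higher.

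Per kb of exon the zeta chain gene was the denser of the pair in 3 of 3 libraries, at 177, 121 and 116 counts in replicates 1, 3 and 4 against 39.3, 43.6 and 33.1 for Pou2f1. The pooled ratio was 3.57 (95% exact interval 3.36 to 3.80, counting error only), with an exact sign-flip permutation p of 0.25 (adjusted 0.393). The ratio thus went the other way from that of Cd3e and Gm48719, in that here the receptor gene was the higher one. How the counts within the 3007 shared bases divide between the strands is not shown by values summed over a whole gene. Cd247 also shares 206 exonic bases with Gm16565 on its own strand, and a fragment over both genes was counted for neither. Within the introns of Cd247, Gm37856, Gm37469, Gm32999 and Gm23402 lie on the other strand and had between 0 and 21 counts in any library. Gm17976, on the other strand inside the span of Pou2f1, had 0 counts in all 4 libraries.

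Cd3d and Cd3g encode the delta and gamma chains and lie next to Cd3e. Cd3g, on the minus strand of chromosome 9 at 44969572 to 44980431, and Cd3d, on the plus strand at 44981786 to 44987339, start back to back with 1354 bases between their first exons. The 3′ end of Cd3d faces that of Cd3e across 11400 bases. The exons of Cd3d and Cd3g overlap no annotated exon on the other strand. RefSeq promoters (GRCm38.p6), from 250 bases before a gene's start to 50 after it, were available for 6 of the 10 genes. Those of the 3 linked CD3 genes are printed, since these neighbouring genes were all lowest in replicate 3. That trait is not particular to them, since 54.6% of all genes with a mean count of 10 or more were lowest there. Capitals mark CAGGTG, an E-box that E proteins can bind, or its reverse complement CACCTG.
Cd3e, chr9:45009562-45009861, minus strand: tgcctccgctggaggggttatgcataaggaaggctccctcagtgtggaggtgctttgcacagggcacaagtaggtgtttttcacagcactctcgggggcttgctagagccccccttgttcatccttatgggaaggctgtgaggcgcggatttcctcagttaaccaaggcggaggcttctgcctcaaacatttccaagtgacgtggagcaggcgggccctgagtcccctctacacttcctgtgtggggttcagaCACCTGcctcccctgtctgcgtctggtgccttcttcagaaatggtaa
Cd3d, chr9:44981536-44981835, plus strand: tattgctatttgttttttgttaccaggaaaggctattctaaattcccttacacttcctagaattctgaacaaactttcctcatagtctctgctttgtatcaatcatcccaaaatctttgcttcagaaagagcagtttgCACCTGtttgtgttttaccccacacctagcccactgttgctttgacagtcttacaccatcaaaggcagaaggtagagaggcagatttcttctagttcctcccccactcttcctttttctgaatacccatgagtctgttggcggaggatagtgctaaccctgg
Cd3g, chr9:44980382-44980681, minus strand: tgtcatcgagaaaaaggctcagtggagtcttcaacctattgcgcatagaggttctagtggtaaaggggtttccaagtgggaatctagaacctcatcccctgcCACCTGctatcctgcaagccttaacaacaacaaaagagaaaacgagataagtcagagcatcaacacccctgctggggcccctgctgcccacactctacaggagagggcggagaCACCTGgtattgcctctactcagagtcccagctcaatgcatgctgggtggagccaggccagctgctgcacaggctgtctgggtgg

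CAGGTG was searched on both strands and was present in the promoters of Cd3e, Cd3d, Cd3g and Cd247 and in both Lck promoters, against 20.21% of 32851 promoters of the same length. None of the 3 Pou2f1 promoters held it. The octamer ATGCAAAT, which Oct-1 binds, was in none of the promoters of these 6 genes and in 1.74% of all. The ETS core GGAAGT, in 23.77% of all promoters and on either strand, was present in those of Cd3e, Cd3d and Cd247 and in both of Lck, but not in that of Cd3g. No CAGGTG match overlapped a GGAAGT match in these promoters. Of the other motifs searched, CAGCTG (16.3% of all) was present in the promoter of Cd3g and in 1 of Pou2f1. CTTTGA (16.0%) was present in those of Cd247 and Cd3d and 1 of Pou2f1, and AGATAA (11.18%) in that of Cd3g and 1 of Pou2f1. A match is a description of the letters in this window and not of binding.

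Cd3d had 31, 0, 12 and 23 counts in replicates 1 to 4, and Cd3g had 45, 0, 14 and 50. The neighbouring Cd3e, with 28, 0, 9 and 26, had fewer counts than Cd3g in each deep library and about as many as Cd3d, although its exonic sequence is the longest of the 3, at 4080 bases against 1815 for Cd3d and 3269 for Cd3g. Corrected for length, Cd3e stood at 0.425 times Cd3d (95% exact interval 0.296 to 0.609) and 0.463 times Cd3g (0.334 to 0.637), lower in 3 of 3 libraries for both. Each gave 0.25 in the exact sign-flip permutation test (p adjusted 0.393), so these differences could not pass a test over 3 libraries. Cd3d and Cd3g stood at a ratio of 1.09 (0.791 to 1.49), with Cd3d higher in 2 of 3 libraries (exact permutation p = 0.50, adjusted 0.688). Cd247 stood at 26.8 times Cd3e per kb on the annotated strand (20.9 to 35.0). Both genes have exons opposite another gene's exons, so this need not be the ratio of their own RNAs.

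**Figure D2:**
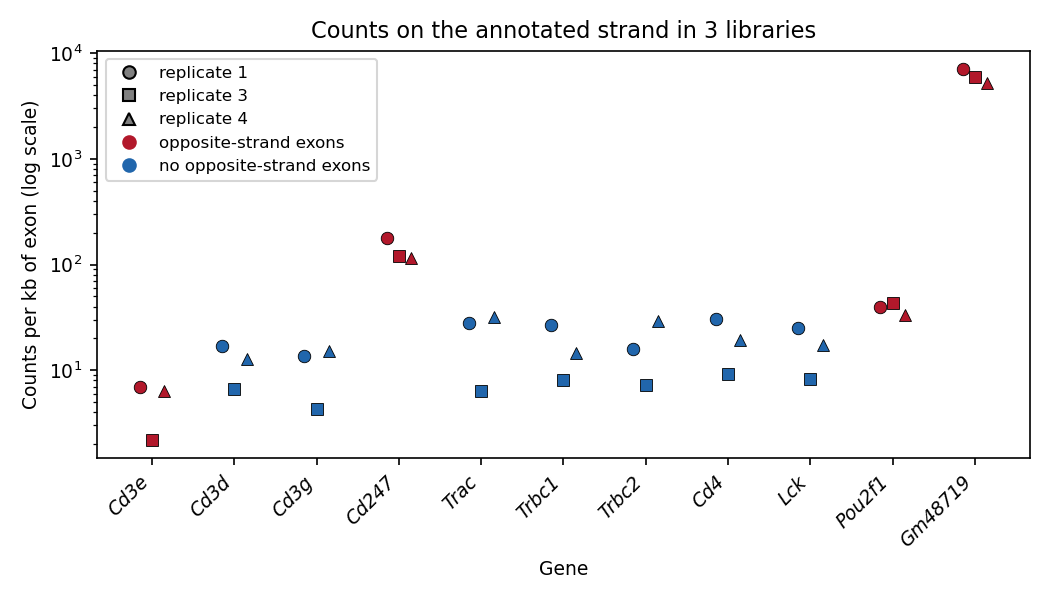
Counts per kb of exon on the annotated strand (log scale) for the 10 genes and Gm48719, with 1 point for each of replicates 1, 3 and 4. Red points are genes with exons opposite another gene's exons and blue points are genes without. In each library Cd3e (2.21 to 6.86) was the lowest and Gm48719 (5175 to 7055) the highest.

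Trac encodes the constant region of the receptor alpha chain, and Trbc1 and Trbc2 encode the alternative constant regions of the beta chain. Trac lies on the plus strand of chromosome 14 at 54220521 to 54224206, and Trbc1 and Trbc2 lie on the plus strand of chromosome 6 at 41538218 to 41539881 and 41546730 to 41548352, 6848 bases apart. None has exons on the other strand opposite its own. Trac had 26, 1, 6 and 30 counts in replicates 1 to 4, which put it at 16.1 ± 11.2 TPM (SD, n = 3). Trbc1 had 20, 1, 6 and 11 counts and Trbc2 had 11, 0, 5 and 20. The beta genes therefore changed order between libraries, with Trbc1 ahead in replicates 1 and 3 and Trbc2 ahead in replicate 4 per kb.

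Pooled per kb, Trbc1 stood at 0.95 times Trbc2 (95% exact interval 0.584 to 1.55, exact permutation p = 1), and the interval leaves room for either gene to be the higher. Their split is uncertain in another way, since the aligned part of the transcripts, 521 bases, was 95.6% identical. Runs of 50 or more identical bases covered 51.7% of Trbc1 and 55.1% of Trbc2, and the longest was 259 bases. Fragments that map to more than 1 place were not counted, per the file headers, so the values of both genes may leave out fragments of the shared runs. Trac stood at 1.34 times Trbc1 (0.879 to 2.07) and 1.27 times Trbc2 (0.832 to 1.98), both with an exact permutation p of 0.75 (adjusted 0.825).

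The variable segments, which recombine to give each receptor its own binding site, were spread thinly. Counts were found over replicates 1, 3 and 4 in 31 of 128 Trav genes (112 counts) and 18 of 35 Trbv genes (84 counts). The leading alpha segments were Trav13n-3 with 11, 0, 7 and 5 counts in replicates 1 to 4, Trav13d-3 with 12, 0, 3 and 2, and Trav13-3 with 6, 0, 1 and 1. The leading beta segments were Trbv13-2 with 7, 0, 1 and 4 counts, Trbv2 with 6, 1, 0 and 4, and Trbv13-1 with 3, 0, 3 and 2. The Trav and Trbv segments together had 88, 44 and 64 counts in replicates 1, 3 and 4, and no joining segment had more than 2. Near-identical segments, such as the 3 Trav13 genes, share sequence and are uncertain one by one. Of the constant regions of the gamma delta receptor, an alternative to the alpha beta receptor, Trdc had 2, 0, 4 and 4 counts, and Tcrg-C1, Tcrg-C2 and Tcrg-C4 had 0.

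Cd4 encodes the co-receptor that binds MHC class II, and Lck the SRC family kinase that it carries. Cd4 lies on the minus strand of chromosome 6 at 124864692 to 124888221 and had 124, 2, 37 and 78 counts in replicates 1 to 4. Lck lies on the minus strand of chromosome 4 at 129548344 to 129573641 and had 74, 1, 24 and 51. Both were highest in replicate 1 and lowest in replicate 3 among the deep libraries. Neither has opposite-strand exons, and the 25 bases that Lck shares with Mir8119 lie on its own strand, where Mir8119 had 0 counts.

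Cd8a, the co-receptor of cytotoxic T cells, had a single count, in replicate 1, and Cd4 stood at 216 times Cd8a per kb with a wide interval (38.3 to 8550). Fyn, the other SRC family kinase of the receptor, had 41, 0, 16 and 20 counts. Lck was higher per kb than Fyn in 3 of 3 libraries, at a pooled ratio of 2.88 (2.17 to 3.85). Both pairs gave an exact permutation p of 0.25 (adjusted 0.393).

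Ordered by mean TPM over replicates 1, 3 and 4, the genes ran from Cd247 at 97.4 ± 8.81 (SD, n = 3) through Pou2f1 at 27.7 ± 4.14, Trac, Cd4 at 13.8 ± 6.25, Trbc2 at 13.1 ± 10.03, Lck at 11.9 ± 5.16, Trbc1 at 11.4 ± 5.14, Cd3d at 8.58 ± 3.26 and Cd3g at 8.09 ± 4.89 to Cd3e at 3.70 ± 1.92. Only the step from Cd247 (88.3 to 106) to Pou2f1 (23.5 to 31.8) had ranges that did not overlap, and every later neighbour overlapped the next. The 7 genes without opposite-strand exons thus spanned 8.09 to 16.1 TPM, while the 3 with them held both ends of the order.

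Each level was set against 1 TPM with limma on log2(TPM + 0.1) and Benjamini-Hochberg adjustment over all genes with a count. All 10 genes lay above 1 TPM, and none below, against 34.8% of all genes above and 16.1% below. The adjusted p was lowest for Cd247, at 3.56e-09, and highest for Cd3e, at 0.0162. Without replicate 4, Cd3e no longer passed (adjusted p = 0.107). With replicate 2 included, Cd3e, Cd3d, Cd3g and Trbc2, which had 0 counts there, no longer passed and 6 of 10 lay above. The median over the 10 genes was 12.5 TPM, against 1.35 TPM over all genes with a count.

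The second question was whether these genes kept their level from library to library. The 7 without opposite-strand exons did not. Their summed count was 331, 104 and 263 in replicates 1, 3 and 4, or 139, 53.9 and 154 CPM, and each of the 7 was lowest in replicate 3. Among all genes with a mean count of 10 or more, replicate 3 was the lowest for 54.6%, and for 75% of those without opposite-strand exons. The summed level thus varied 2.85-fold between libraries, while all genes without opposite-strand exons together, at 92607, 57810 and 86695 CPM, varied 1.60-fold. Scaled to the counts of that class alone, the 7 genes summed to 1497, 932 and 1771 CPM. By contrast, the summed level of Cd3e, Cd247 and Pou2f1 varied 1.05-fold and that of Gm48719 1.06-fold. All genes with opposite-strand exons together varied 1.04-fold, and that class holds most of the counts to which CPM is scaled. Within the sum of the 3 genes, Cd247 was lowest and Pou2f1 highest in replicate 3. Cd3e, at 11.7, 4.66 and 15.2 CPM, varied like the genes without opposite-strand exons, while Cd247 stood at 395, 334 and 361 CPM and Pou2f1 at 273, 375 and 320. The count of Gm48719 was 7.69, 20.9 and 7.10 times the summed count of the 7 genes in replicates 1, 3 and 4.

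**Figure D3:**
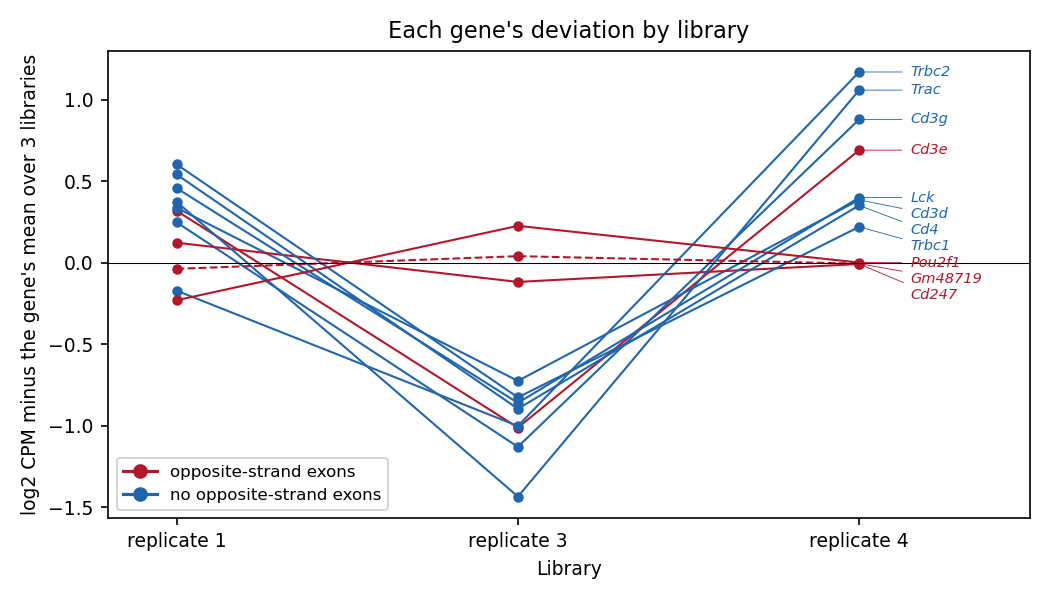
Log2 CPM of each gene minus its mean over replicates 1, 3 and 4 (y axis) in each library (x axis), with 1 line per gene. Red lines are Cd3e, Cd247, Pou2f1 and, dashed, Gm48719, and blue lines are the 7 genes without opposite-strand exons. All blue lines and Cd3e have their lowest point in replicate 3.

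Each deep library was then set against the other 2 with edgeR's quasi-likelihood test and Benjamini-Hochberg adjustment, a test that compares libraries, not conditions, and assumes that the lone library varies like the others. Its spread therefore came from only 2 libraries, and a call says that a library stood apart from that pair. All 10 genes passed its filter. In replicate 3, 4 of the 10 were lower, against 12.4% of all genes tested. All 4 are among the 7 without opposite-strand exons, a class in which 22% of the genes tested were lower. Cd4 fell by 1.21 ± 0.35 on the log2 scale (SE, adjusted p = 0.00807), Cd3g by 1.56 ± 0.49 (0.0173), Trac by 2.01 ± 0.64 (0.0185) and Lck by 1.15 ± 0.41 (0.0375). Pou2f1, the transcription factor gene, was higher by 0.47 ± 0.16 (adjusted p = 0.0234), 1 of 10 against 2.79% of all genes. The log2 differences of Cd3e, Cd3d, Trbc1 and Trbc2, between −0.94 and −1.43, did not pass (adjusted p = 0.0952 to 0.283), nor did those of Cd247 at −0.04 (0.886) and Gm48719 at 0.20 (0.254).

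These calls did not hold under another scaling or another tool. Genes without opposite-strand exons had a median difference of −0.82 in replicate 3, against −0.11 over all genes tested, and their share of all counts was lowest there. When the TMM factors were taken from genes without opposite-strand exons, which moved the median of all genes by 0.84 on the log2 scale, none of the 10 was lower. Under that scaling the direction of Cd247 turned to 0.80 (edgeR adjusted p = 1.68e-04), Pou2f1 stood at 1.31 (1.37e-06) and Gm48719 at 1.03 (6.95e-07), while Cd4 stood at −0.37 (0.394) and Trac at −1.18 (0.159). With DESeq2 none of the 10 was called, though it gave no adjusted p for 5 of them (Cd3e, Cd3d, Trac, Trbc1 and Trbc2), and 20 genes were higher and 36 lower in all. The DESeq2 log2 differences were close to those of edgeR, at −1.10 ± 0.54 for Cd4 (SE), −1.48 ± 0.81 for Cd3g, −1.05 ± 0.67 for Lck and 0.58 ± 0.24 for Pou2f1, with larger standard errors. The median log2 difference over the 10 was −1.08 with DESeq2 and −1.18 with edgeR. Over all genes tested it was −0.0042 with DESeq2 and −0.11 with edgeR. Fewer T cells and less RNA per cell cannot be told apart in bulk samples, and whether the level of replicate 3 comes from the cells or the library was not tested.

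In replicate 1 none of the 10 was called against 0.0289% of all genes (2 genes), and in replicate 4 none against 0.0433% (3 genes), with edgeR. None of the 10 had an unadjusted p under 0.05 in either library, and DESeq2 called none. The estimated spread between the reference libraries was larger in these contrasts, with a biological coefficient of variation of 0.310 and 0.337, against 0.141 for replicate 3. Without replicate 1, so that replicate 4 stood against replicates 2 and 3, Cd3e, Cd3g, Trac and Trbc2 were called higher in replicate 4, by 1.57 to 2.13 on the log2 scale, as were 9.14% of all genes.

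Of 31 genes for the kinases, adaptors and inhibitors that act next to the receptor, 29 had a count, and 16 of these (55.2%) lay above 1 TPM by the limma test, against 34.8% of all genes. A single gene, Lax1, a negative adaptor with 1 count, lay below, against 16.1%. The 16 became 4 with all 4 libraries and 27 with the TPM denominator taken over genes without opposite-strand exons. Txk and Lime1 had 0 counts. The highest was Sla2, an adaptor that damps receptor signalling, with 3795, 8, 3017 and 2600 counts and 717 ± 13.9 TPM (SD, n = 3). It was followed by Lcp2, the adaptor SLP-76, at 20.9 ± 7.01 TPM, Ptpn6, the phosphatase SHP-1, at 12.9 ± 5.22 and Fyb, an adaptor of integrin activation, at 12.1 ± 1.99. All 4 leading genes have opposite-strand exons, which 8 of the 31 have. Zap70 stood at 5.65 ± 3.09 TPM and Lat, the membrane adaptor that Zap70 phosphorylates, at 9.06 ± 3.75, both without opposite-strand exons.

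Of 23 genes of the later steps, from protein kinase C and calcium to NFAT and NF-kappaB, 6 lay above 1 TPM (26.1%, against 34.8% of all genes) and none below by the same test. Leaving out 1 library moved the 6 to 12 (without replicate 3) or 3 (without replicate 4), and a TPM denominator over genes without opposite-strand exons moved it to 21. They were led by Malt1, the paracaspase of the NF-kappaB branch, at 7.35 ± 5.04 TPM, Prkcq, protein kinase C theta, at 7.05 ± 2.43, Nfkb1, an NF-kappaB subunit, at 5.66 ± 2.40 and Dgkz, which removes diacylglycerol, at 3.94 ± 2.51. The remaining 2 were Dgka and the calcium channel gene Itpr1. The medians were 3.15 TPM for the proximal genes and 1.94 for the later ones, both below the 12.5 TPM of the receptor set.

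In replicate 3, edgeR called 4 of 20 tested proximal genes lower, among them Ptprc, the phosphatase CD45 that activates Lck, by 1.44 on the log2 scale, Themis by 2.21 and Cblb by 1.80 (adjusted p up to 0.0393). This share is near the 22% of genes without opposite-strand exons that were called lower, and of the 13 proximal genes in that class 2 were. The median log2 difference was −1.27 over the 14 tested later genes. It was −1.36 over the 10 of them without opposite-strand exons, against −0.82 over all tested genes of that class. The difference was negative in 12 of the 14, and in 9 of those 10, against 2442 of the 3060 tested genes of the class. Malt1 stood at −2.37, Nfatc2 at −2.27, Dgkz at −2.19, Itpr1 at −1.24 and Nfkb1 at −1.11, while Prkcq stood at 0.96. With TMM factors from genes without opposite-strand exons, the median of the proximal genes moved from −1.03 to −0.20. That of the later genes moved to −0.44, and that of all genes tested from −0.11 to 0.72. Of 6 other T cell genes, all without opposite-strand exons, Cd2, Cd5, Thy1 and Bcl11b were lower in replicate 3, against the 22% of their class, and none was with the TMM factors from that class. Of the same list, Cd6, at 28.4 ± 3.20 TPM, differed by −0.06 (edgeR adjusted p = 0.900) and Cd28 by −0.75 (0.281).

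Other genes of the pathway also faced a denser gene on the other strand. Over both lists, 14 genes formed 16 pairs with a gene whose exons lie opposite their own, and the partner was the denser per kb in 15 of 16. Among all 4887 pairs of a protein-coding gene and a gene with exons opposite it, the partner was the denser in 64.8%. Where the partner lay inside the span of the gene, with 300 or more counts in the pair, it was the denser in 9 of 9 pairs of these lists against 86.1% of the 540, so the direction in nested pairs was that of most such pairs in the libraries. Skap1, an adaptor of integrin activation, had 13, 1, 3 and 11 counts against 1869, 6, 2066 and 1458 for 2010300F17Rik, 526-fold more per kb. Ptpn6 had 87, 0, 32 and 39 counts against 3169, 7, 2901 and 2533 for Gm20531, 111-fold more. In both pairs, as with Cd3e, the signalling gene's CPM was lowest in replicate 3 and that of its partner in replicate 1, which held in 7 of the 16 pairs. Over all of them, 11 of the 14 signalling genes were lowest in replicate 3, while 8 of the 16 partners were lowest in replicate 1, 5 in replicate 3 and 3 in replicate 4. Among all genes with opposite-strand exons and a mean count of 10 or more, 38.3% were lowest in replicate 3. Some of the 14 did not reach that mean count. No such share was computed for replicate 1 or for the joint pattern.

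Across the 16 pairs the partner's density was 84.6 times that of the signalling gene at the median, and the 15 in which it was denser ran from 8.68 to 526 times. The exception was Sla2 opposite Rab5if, where the partner stood at 0.0607 times the density of Sla2 with 224, 1, 154 and 151 counts. Sla2 thus resembled Cd247, the other receptor-pathway gene here that was denser than the gene opposite it. Further partners were 4930469K13Rik (Lcp2), Zhx3 and Gm27206 (Plcg1), 4930519F09Rik (Themis), Gm2245 (Fyb), Pmel (Dgka), Gm9821 (Dgkz), Gm44040 and Gm44101 (Itpr1), Itpr3os (Itpr3), Gm2479 (Orai1) and Esrp2 (Nfatc3).

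**Figure D4:**
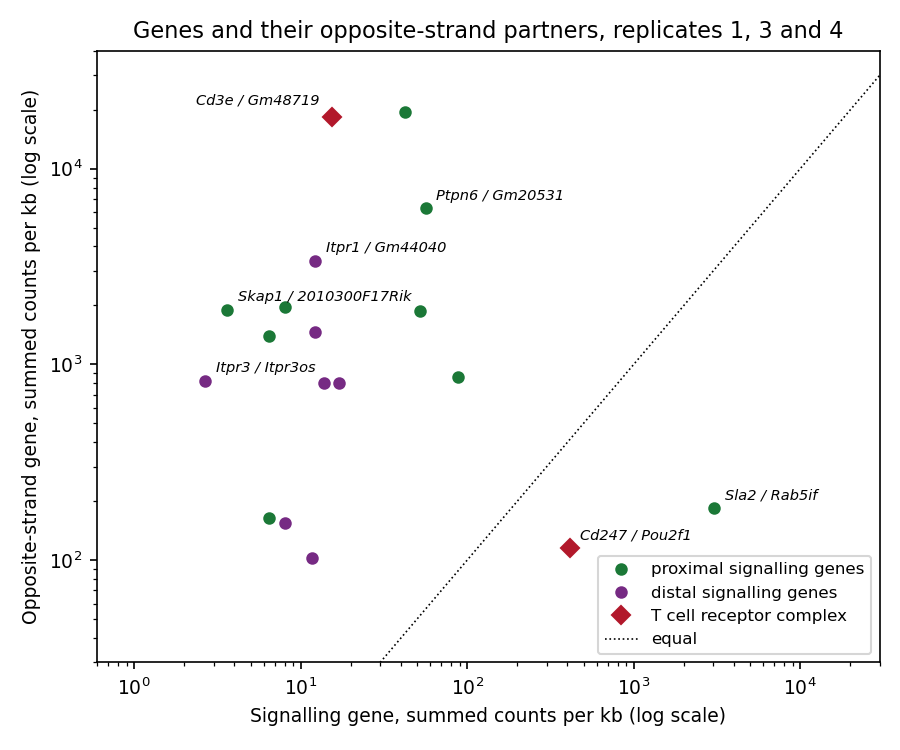
Counts per kb summed over replicates 1, 3 and 4 for receptor and signalling genes (x axis, log scale) and for the genes opposite them (y axis, log scale), with 1 point per pair and a dotted line at equal density. Cd247 and Sla2 are the points below the line.

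The labelled cells were checked against markers of T cells and of other cells. The lists held no marker of the Th2 type, so that part of the label was not examined. Besides the receptor set, 5 of 6 further T cell genes lay above 1 TPM by limma, against 34.8% of all genes. So did 3 markers of other cells, the B cell gene Cd79a (adjusted p = 0.00671) and the myeloid genes Cd68 (0.00191) and Csf1r (1.23e-09). These values are counts on the annotated strand, which need not be the markers' own RNA. Of the cytotoxic T cell markers Cd8b1 had 4 counts, and Gzmk and Prf1 had 0. Of the immature thymocyte genes Rag1, Rag2 and Ptcra had 0 and Dntt 2. Of the B cell markers Cd79a had 5, 1, 11 and 17 counts, while Cd79b, Ms4a1 and Pax5 had 0. Eomes, with 7, 0, 6 and 6, was the sole natural killer marker with counts.

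Among the myeloid markers Csf1r had 1091, 2, 910 and 878 counts opposite Hmgxb3, which had 16, 0, 6 and 9, while Cd68 had 8, 0, 6 and 6, Lyz2 had 1 count and Itgam and Adgre1 had 0. The summed markers of the B cell list stood at 2.09, 5.70 and 9.92 CPM in replicates 1, 3 and 4, those of the natural killer list at 2.93, 3.11 and 3.50, those of the myeloid list at 460, 475 and 517 and those of the cytotoxic list at 1.26, 0 and 1.17. Only the cytotoxic list was lowest in replicate 3, where the receptor genes were lowest. Whether cells of these lists were present, and what part they had in the differences of replicate 3, was not tested. Of the other octamer factors, Pou2f2, which encodes Oct-2, stood at 6.43 ± 2.19 TPM, and Pou2af1, a co-activator of octamer factors, had 2, 0, 0 and 4 counts.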

How the data were processed

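The authors deposited unnormalised fragment counts for each gene of 4 libraries, for which STAR alignments were counted over GENCODE vM13 exons by featureCounts 1.4.6-p4, in paired mode with strand setting 1, per the file headers. Neither the version of STAR nor the strand direction of the library kit is given in the sources used here. Symbols came from GENCODE vM21 (224 of 50600 identifiers had none). Opposite-strand exons were found from the files' coordinates (mm10) with bedtools 2.31.1, at an overlap of 1 base or more. CPM and TPM were computed from counts and exonic lengths. Levels were tested with limma 3.58.1 (pseudocount 0.1 TPM) and single libraries with edgeR 4.0.16 (TMM, mean count of 10 or more, threshold 0.05), with DESeq2 1.42.0 as the alternative, in R 4.3.3. The scripts were tested on simulated data. Pair ratios used 0.5 added counts, exact permutation tests and exact 95% intervals. Named genes were the set, its opposite-strand neighbours and, per list, the 4 highest, those below 1 TPM and those called in a contrast, and markers with 10 or more counts. Others named, such as Skap1, Zap70 and markers at or near 0, were chosen after their values were seen. A few genes that the rule names are not reported here. The set and the lists were chosen with earlier results of these data known.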

Additional observations from a re-analysis of the deposited data

Results flagged for a closer look

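Among the 10 genes and Gm48719, 5 had a CPM in replicate 2 far above their 3 other libraries. The rule flags about 1 in 20 such groups by chance, but that rate does not apply here. A single count in replicate 2 is worth 199.36 CPM, far above the values of Trac, Trbc1, Cd4 and Lck in the other libraries. Trac, Trbc1 and Lck stood at 199.36 CPM there from 1 count each, and Cd4 at 398.7 CPM from 2 counts, all under the floor of 598.09 CPM. Gm48719 stood at 1794 CPM from 9 counts, above that floor, and was thus detected in the library that the means leave out. Whether these 9 counts differ from its level in the other libraries beyond counting error was not tested.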

How the results depend on the processing

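All values compared here rest on 3 libraries, and replicate 2 could show no gene below its floor. No paired analysis was possible because the 4 libraries form a single group. With all 4 libraries, 6 receptor genes, 4 proximal and 0 later genes and 1999 of all genes lay above 1 TPM and 4843 below. With the TPM denominator taken over genes without opposite-strand exons these were 27 proximal, 21 later and 11120 of all genes above and 0 below. All genes below 1 TPM numbered 4384 with a pseudocount of 1 and 16 among genes with a mean count of 10 or more. Leaving out each library gave 3 to 12 later genes above and 0 to 71 of all genes below.

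In replicate 3, DESeq2, which gave no adjusted p for 5 receptor genes, called 0 receptor genes higher and 0 lower, 1 proximal and 0 later genes lower, and 20 of all genes higher and 36 lower. Without the count filter 2 receptor genes and 560 of all genes were lower. With replicate 2 added to the reference 0 receptor genes and 60 of all genes were higher. With TMM factors from genes without opposite-strand exons 2 receptor genes were higher and 0 lower, 1 proximal and 2 later genes were lower, 2809 of all genes were higher and 118 lower, and Cd247 reversed to 0.80. Under that scaling the median log2 difference was −0.20 for the proximal genes and −0.44 for the later genes, against 0.72 over all genes tested. Leave-one-out contrasts kept replicate 2 in the reference. In replicate 3 they gave 0 receptor genes higher, 2 to 4 lower, and 31 to 69 of all genes higher. In replicate 1 all genes called were 5 to 753, and 1 without the filter. In replicate 4, 0 to 4 receptor genes and 5 to 657 of all genes were called, and 0 of all genes with DESeq2 or with TMM factors from genes without opposite-strand exons.

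The mean log2 ratio of Trbc1 to Trbc2, −0.03, ran from −0.41 to 0.42 when each library was left out and was 0.34 with all 4. That of Trac to Trbc1 ran from −0.13 to 0.57, and that of Trac to Trbc2 from −0.027 to 0.45. Beyond the effect of each setting's construction, the cause of these changes was not tested.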
